A study of Homo sapiens with 3 samples.

Results

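ABC transporter genes were described in 3 RNA-seq libraries of cells that the labels call Hep3B, an established line of human liver cancer cells. The control, the knockout labelled USP39-KO and the knockout labelled SIRT7-KO had 1 library each, and the labels give no time, dose or further treatment. USP39 is a spliceosomal ubiquitin protease homologue, SIRT7 is a nuclear sirtuin deacylase, and the labels do not say how either gene was knocked out, or whether the cells were a clone or a pool. The set comprised the protein-coding genes whose symbol, by Ensembl identifier in GENCODE 29, begins with ABCA to ABCG followed by a digit, leaving out ABCA1 and ABCG1. It held 43 of the 22827 genes in the table. There were 11 genes in subfamily A, 9 in B, 11 in C, 4 in D, 1 in E, 3 in F and 4 in G. Other family members that carry older names, such as TAP1 and TAP2, are not in the set and are given only as companions.

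ABC proteins bind and hydrolyse ATP at paired nucleotide-binding domains. In most of them this drives the passage of a substrate across a membrane: lipids in subfamily A, drugs, bile salts and conjugates in subfamilies B, C and G, and fatty acyl-CoA in peroxisomes in subfamily D. Subfamilies E and F have no membrane part and act on ribosomes, and ABCC8 and ABCC9 are regulatory subunits of ATP-sensitive potassium channels rather than pumps. In the liver the family is best known for the canalicular exporters, among them ABCC2 (MRP2), which moves bilirubin glucuronides and glutathione conjugates into bile.

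Values given 3 at a time are for control, USP39-KO and SIRT7-KO, in that order, and pairs of log2 ratios are for USP39-KO and then SIRT7-KO, each over the control. Library totals were 19427940, 16630636 and 16151522 counts. Without replicates nothing was tested, and every comparison is between libraries, not between conditions. Intervals of ratios are exact 95% intervals for counting error alone. A gene was called higher or lower when it differed at least 2-fold and its interval excluded equality. The 2 target genes fell short of that rule in their own libraries, USP39 with 1829, 1066 and 1511 reads and SIRT7 with 984, 808 and 608. Of 12 hepatocyte markers, 9 had under 10 reads in every library, ALB, AFP and TTR at 0 in all 3, while CPS1 had 26607, 22163 and 22378 reads and ASS1 had 56967, 51600 and 44242. The third marker to reach 10 reads, the fibrinogen gene FGB, had 55, 1 and 2. Of 4 epithelial markers, KRT8 had 37684, 24379 and 26167 reads and KRT18 2462, 1690 and 1861. EPCAM had 37, 21 and 7 and CDH1 24, 28 and 8. The absent hepatocyte markers do not match the label of a liver cell line, while CPS1 and ASS1 were well read. The identity of the cells was not tested, so the liver roles of genes named here are background. The ribosomal protein gene RPL7A and the splicing factor gene SF3B4, used by nearly all cells, are also listed at 0, so a gene listed at 0 is not thereby shown to be silent. All 4 endothelial and 3 of 4 leukocyte markers had under 10 reads throughout. Of 3 neural markers, SNAP25 had 255, 216 and 85 reads, TUBB3 had 47, 67 and 87, and GAP43 had at most 1. Summed fibroblast markers were at 117.9, 139.2 and 114.0 CPM (counts scaled to effective library size). COL1A1 made up most of that sum, with 101.8, 125.8 and 93.3 CPM, followed by PDGFRB with 15.5, 13.2 and 20.0. COL1A2 was at 0 in all 3 libraries, and DCN, LUM and COL3A1 had at most 10 reads each. Whether marker levels bear on any ABC gene was not tested.

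The start regions of 4 members are shown first, because members past the rule and the other counted members differed in the number of CG dinucleotides there. Each is the RefSeq window (GRCh38.p14) from 250 bases before to 50 after the gene's start, 300 bases read 5′ to 3′ on the gene's strand, with every CG in capitals. ABCC9 (chr12:21941377-21941676, minus strand), ABCC2 (chr10:99782390-99782689, plus strand) and ABCB1 (chr7:87713246-87713545, minus strand) differed between libraries, and ABCE1 (chr4:145098061-145098360, plus strand) did not by the rule.
ABCC9: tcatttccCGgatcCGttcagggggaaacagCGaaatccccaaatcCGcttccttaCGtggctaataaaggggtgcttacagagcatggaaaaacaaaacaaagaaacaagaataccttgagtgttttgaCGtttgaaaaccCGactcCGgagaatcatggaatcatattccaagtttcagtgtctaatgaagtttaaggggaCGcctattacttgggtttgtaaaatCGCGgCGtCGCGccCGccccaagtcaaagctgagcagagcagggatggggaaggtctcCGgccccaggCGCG
ABCC2: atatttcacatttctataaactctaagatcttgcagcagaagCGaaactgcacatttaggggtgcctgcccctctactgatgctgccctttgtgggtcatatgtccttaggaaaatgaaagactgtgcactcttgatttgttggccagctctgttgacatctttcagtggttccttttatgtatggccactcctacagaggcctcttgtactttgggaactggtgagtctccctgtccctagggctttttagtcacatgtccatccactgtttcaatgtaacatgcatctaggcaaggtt
ABCB1: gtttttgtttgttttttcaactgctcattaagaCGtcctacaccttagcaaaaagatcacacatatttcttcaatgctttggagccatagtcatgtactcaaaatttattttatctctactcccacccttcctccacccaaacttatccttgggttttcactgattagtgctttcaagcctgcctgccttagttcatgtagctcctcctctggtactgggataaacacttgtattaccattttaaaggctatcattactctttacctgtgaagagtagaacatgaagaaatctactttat
ABCE1: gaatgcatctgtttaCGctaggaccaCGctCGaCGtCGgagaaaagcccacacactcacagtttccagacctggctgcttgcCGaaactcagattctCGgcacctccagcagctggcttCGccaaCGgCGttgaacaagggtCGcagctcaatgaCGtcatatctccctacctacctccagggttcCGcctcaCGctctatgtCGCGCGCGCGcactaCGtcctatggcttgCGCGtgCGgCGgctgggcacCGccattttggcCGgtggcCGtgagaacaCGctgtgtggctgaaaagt
These windows hold 18, 1, 1 and 28 CG dinucleotides, in that order. The RefSeq start of ABCC9 lies 1103 bases inside the GENCODE 29 gene, so the window is not the only possible start of that gene. Each window covers 1 start only, that of ABCB1 included, and CG numbers at other starts of these genes were not examined.

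A window, at 1 start per gene, was found for 34 of the 43 genes, and ABCA4, ABCA8, ABCB4, ABCB5, ABCC1, ABCC3 and ABCC8 were among those with none. ABCA8, ABCC3 and ABCC8 were past the rule for at least 1 pair of libraries, so the numbers that follow leave out these called members. The 7 members with a window that were past the rule for at least 1 of the 3 pairs of libraries (ABCA10, ABCA13, ABCB1, ABCC2, ABCC6, ABCC9 and ABCG4) had a median of 3 CG dinucleotides, with a range of 1 to 26. The 16 other members with at least 10 counts had a median of 28.5 and a range of 15 to 47, and the 11 members with fewer counts a median of 3. Over all 27305 windows the median was 14. Of the members with at least 10 counts, all 4 below 14 were past the rule and 3 of 19 at or above it. Across all protein-coding genes counted and matched to a window, 23.6% of 1614 genes below 14 and 9.03% of 8132 at or above it were past the rule in at least 1 comparison. The first class also had lower levels, with a median of 11.3 CPM against 39.7 CPM. The division by CG number was chosen after the values were seen, and whether level accounts for it was not tested. Among genes with a mean of at least 10 CPM the shares were 6.47% of 834 and 3.46% of 6441, with 2 of 2 and 1 of 16 members. As for short motifs on either strand, GGGCGG (the GC box) was in 17 of 34 member windows and 44.6% of all windows, CCAAT in 6 and 35.7%, and TATAAA in 4 and 12.0%.

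The family took a small part of each library. Its reads were 0.202% of control counts (exact binomial interval 0.200 to 0.204%), 0.186% of USP39-KO counts (0.184 to 0.188%) and 0.226% of SIRT7-KO counts (0.223 to 0.228%). Of the 43 genes, 29 reached 10 counts in some library, 23 reached 100, and 4, among them ABCB5, ABCC12 and ABCD2, had no read anywhere. A count of 0 allows up to 0.154, 0.182 and 0.184 CPM. In bulk RNA, fewer cells with a transcript and less of it per cell cannot be told apart. The 5 genes with most reads in each library held 57.8%, 53.4% and 59.9% of the family's reads.

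Levels between genes are compared as deposited FPKM, which scale counts by the listed gene length. In the control ABCC2 had the highest level, 43.9 FPKM. It was followed by the brain-enriched lipid transporter ABCA2 at 32.8, the ribosome-associated ABCF2 at 30.7, the conjugate exporter ABCC1 (MRP1) at 27.9 and the ribosome recycling factor ABCE1 at 26.9. Only the last pair of these 5 had overlapping counting intervals. In SIRT7-KO the same genes led in the same order, with ABCC2 at 57.8 FPKM and ABCA2 at 40.3, and intervals overlapped from ABCF2 to ABCC1 and from ABCC1 to ABCE1. In USP39-KO ABCC2 was at rank 5 with 24.2 FPKM, its interval overlapping that of ABCE1 at 25.1, and ABCF2 came first at 34.8. ABCC9 had 0.536, 3.90 and 0.808 FPKM.

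**Figure D1:**
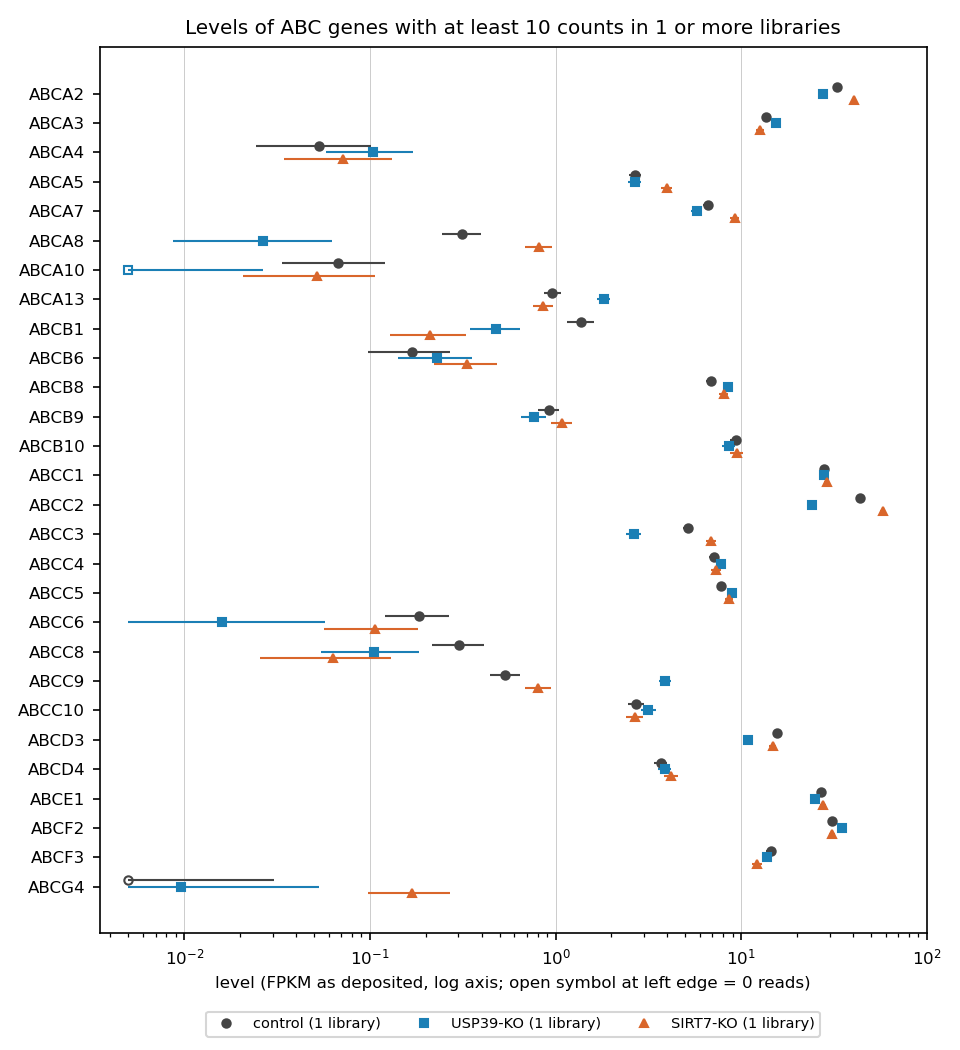
Level of ABC genes reaching 10 counts in some library (1 of the 29 is not drawn), as deposited FPKM on a log axis, with 1 symbol per library and lines for 95% counting intervals; open symbols at the left edge are 0 reads. ABCC2 leads in the control (43.9) and SIRT7-KO (57.8) but not in USP39-KO (24.2), and ABCC9 is set apart in USP39-KO (3.90).

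In USP39-KO 1 member was higher than in the control by the rule and 5 were lower, of 29 counted. Over all 12726 genes counted, 1.49% were higher, 3.37% lower and 4.86% either. The member that was higher was ABCC9, and those lower were ABCA8, ABCA10, ABCB1, ABCC6 and ABCC8. The median log2 ratio of the 29 members was -0.05, against -0.0022 over all genes, with 14 members above 0. Among members with at least 200 reads in the pair of libraries, 17 of 21 lay within 1.5-fold (81.0%), compared with 95.1% of 9891 genes. The 5 lower members all had under 150 reads in the control. With at least 100 counts required, 1 of 23 members was higher and 2 were lower (ABCA8 and ABCB1), where 0.471% and 1.24% of 10181 genes were.

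In SIRT7-KO 2 members were higher than in the control, ABCA8 and ABCG4, and 2 were lower, ABCB1 and ABCC8. The shares over all genes were 3.02% higher, 4.05% lower and 7.06% either. The members' median log2 ratio was 0.04 against -0.01 over all genes, with 18 of 29 above 0. Of members with at least 200 reads in the pair, 21 of 22 lay within 1.5-fold (95.5%), and 89.9% of 9924 genes did. Both comparisons use the same control library. Between the knockouts themselves, 6 members were higher in SIRT7-KO and 3 lower, where 5.03% and 3.51% of all genes were, 8.54% in all. The higher members were ABCA8, ABCA10, ABCC2, ABCC3, ABCC6 and ABCG4, and the lower were ABCA13, ABCB1 and ABCC9.

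**Figure D2:**
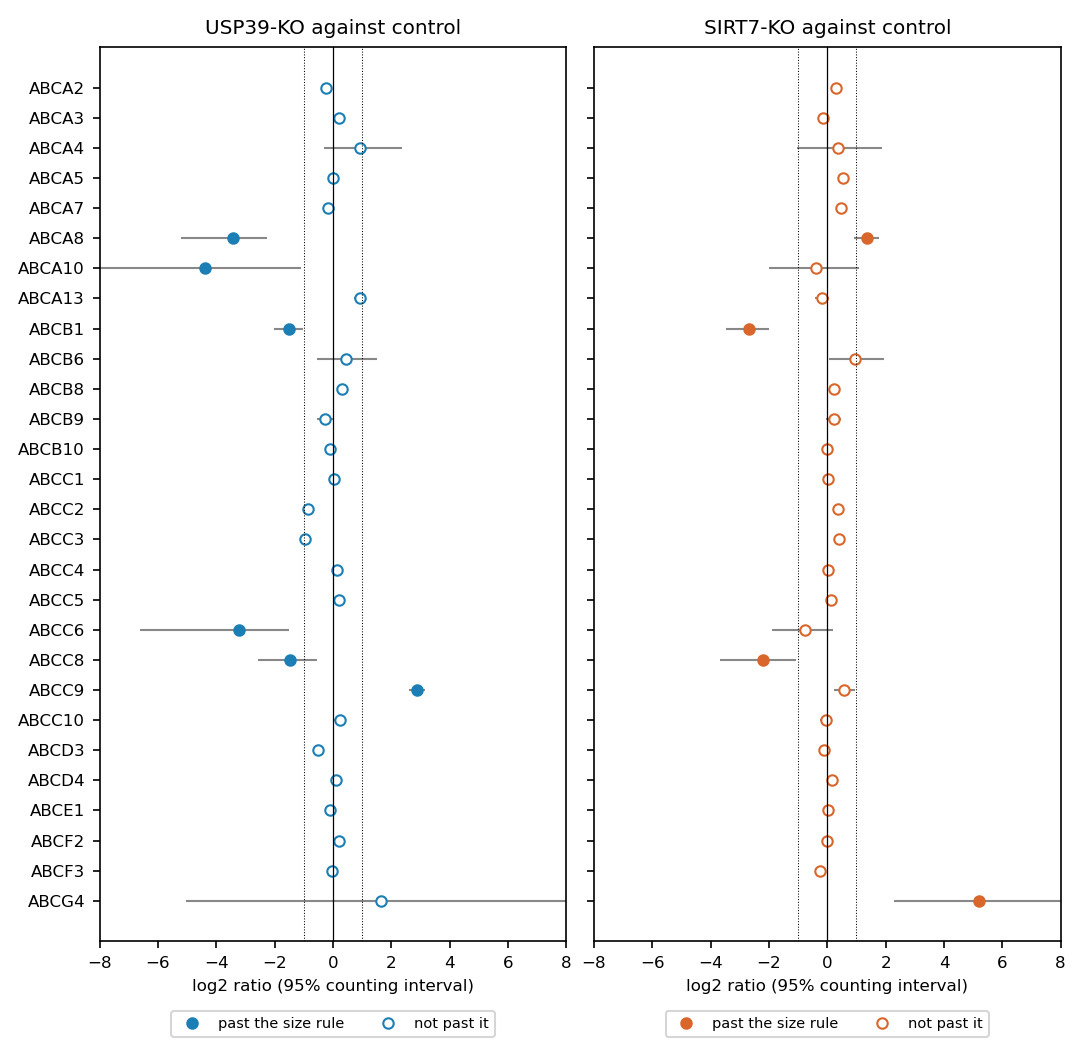
Log2 ratio of counted ABC genes to the control (1 of the 29 is not drawn), with its exact 95% counting interval (cut at 8 either way), for USP39-KO (left) and SIRT7-KO (right); filled points passed the 2-fold rule, and dotted lines mark 1 and -1. ABCC9 is the 1 filled point right of 0 in USP39-KO, ABCA8 lies on opposite sides of 0 in the panels (-3.43 and 1.35), and points of ABCA10 in USP39-KO and of ABCG4 rest on 0 reads in 1 library and depend on the prior count.

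**Figure D3:**
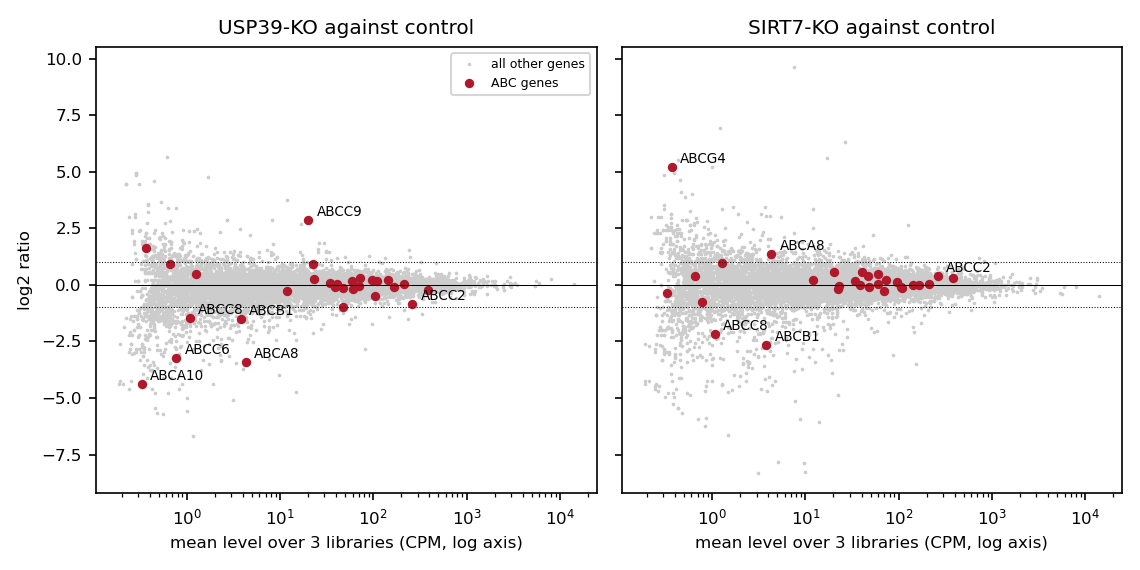
Log2 ratio to the control against mean level (CPM, log axis) for all 12726 counted genes (grey) and the ABC genes (red), with members past the rule and ABCC2 named. ABCC9 is the highest of the members past the rule in mean level, and ABCC2, among the most abundant members, is at -0.84 in USP39-KO and 0.38 in SIRT7-KO.

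Subfamily C summed to 713.3, 631.0 and 825.7 CPM, and of its 9 counted members 1 was higher and 2 lower in USP39-KO, and 1 lower in SIRT7-KO. The matching shares of all genes were 1.49%, 3.37% and 4.05%. ABCC9 (ENSG00000069431; chromosome 12, 21797401 to 21942529, minus strand in GENCODE 29) encodes SUR2, the sulfonylurea receptor of muscle-type ATP-sensitive potassium channels. It had 119, 740 and 149 reads, or 6.12, 45.0 and 9.13 CPM. The USP39-KO library stood far above the others. Its level was 7.34 times that of the control (6.04 to 8.99), which placed ABCC9 at rank 22 of 12726 genes by log2 ratio. SIRT7-KO was 1.49 times the control (1.16 to 1.91), short of the rule, and 4.92-fold below USP39-KO (4.12 to 5.91).

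ABCC8 encodes SUR1, the receptor of the pancreatic and neuronal channels. Its counts went the other way, with 40, 12 and 7 reads. It was 2.82-fold lower in USP39-KO (1.45 to 5.91) and 4.80-fold lower in SIRT7-KO (2.13 to 12.7). The channel pores were nearly unread: KCNJ8 (Kir6.1), which lies beside ABCC9, had 0 reads in all 3 libraries, and KCNJ11 (Kir6.2), which lies beside ABCC8, had 6, 2 and 1. Of 10 genes in a list of these receptors, their pores and other inward rectifiers, 4 were counted (medians 0.83 and 0.43). In USP39-KO 2 were higher and 1 lower, and in SIRT7-KO 1 was lower, where 1.49%, 3.37% and 4.05% of all genes were. The list includes ABCC9 and ABCC8 themselves, so their calls are not separate from those above. Besides the 2 receptors, KCNJ14 passed the rule, with 20, 35 and 29 reads (log2 ratio 1.03 in USP39-KO, 0.21 to 1.92), and KCNJ2, the most abundant pore gene of the list, had 259, 341 and 265 (log2 ratio 0.64 in USP39-KO).

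ABCC2 (ENSG00000023839; chromosome 10, 99782640 to 99852594, plus strand) had 5318, 2512 and 5822 reads, or 274, 153 and 357 CPM. USP39-KO was the low library. ABCC2 was at 0.558 times the control (0.532 to 0.585) in USP39-KO and 1.30 times (1.26 to 1.35) in SIRT7-KO, neither past the rule, and the knockouts differed 2.34-fold (2.23 to 2.45). ABCC3 (MRP3), the basolateral exporter of glucuronides, had the same order, with 970, 421 and 1066 reads. It stood at 0.512 times the control in USP39-KO (0.456 to 0.575), just short of 2-fold, and at 1.31 times in SIRT7-KO (1.20 to 1.43). ABCC6, an exporter known for its role in keeping tissues free of calcification, had 27, 2 and 13 reads and was 11.4-fold lower in USP39-KO (2.87 to 99.2). Its values are uncertain, since the genome holds the pseudogenes ABCC6P1 and ABCC6P2. Pseudogenes of other members, ABCF2 and ABCB10 among them, are annotated as well, and the same caution holds for those genes.

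The other exporters of the subfamily hardly differed. ABCC1 had 4100, 3519 and 3531 reads, giving log2 ratios of 0.02 in USP39-KO (-0.05 to 0.08) and 0.04 in SIRT7-KO (-0.03 to 0.10). The nucleotide and prostaglandin exporter ABCC4 had 0.15 and 0.03, the cyclic nucleotide exporter ABCC5 0.21 and 0.11, and ABCC10 0.24 and -0.04, as log2 ratios in USP39-KO and SIRT7-KO. ABCC11 had at most 6 reads in a library. Summed over the 12 drug and conjugate exporters of subfamilies B, C and G, levels were 713.2, 588.4 and 817.3 CPM.

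ABCB1 (ENSG00000085563; chromosome 7, 87503633 to 87713323, minus strand) encodes P-glycoprotein, the multidrug pump of the canalicular membrane and of drug-resistant tumour cells. It had 148, 44 and 19 reads, or 7.62, 2.67 and 1.16 CPM. The control was highest and the 3 libraries had a clear order. ABCB1 was 2.85-fold lower than the control in USP39-KO (2.02 to 4.09) and 6.54-fold lower in SIRT7-KO (4.04 to 11.2), and 2.30-fold lower in SIRT7-KO than in USP39-KO (1.31 to 4.16). RUNDC3B overlaps ABCB1 on the opposite strand and had 86, 107 and 54 reads. The sources used here do not state whether counting used strand, so reads of this pair cannot be told apart. ABCG2, the breast cancer resistance protein, had 8, 7 and 0 reads and was below the filter (without the filter it counts as lower in SIRT7-KO).

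The remaining canalicular pumps were close to unread: the bile salt export pump ABCB11 had 2, 3 and 0 reads, the phospholipid floppase ABCB4 had 0, 1 and 1, and the sterol half-transporters ABCG5 and ABCG8 at most 2 each. Of the 7 canalicular genes, only ABCB1 and ABCC2 had at least 10 counts. ABCG4, a sterol half-transporter of neural tissue, had 0, 1 and 17 reads. Its SIRT7-KO level was at least 6.75-fold higher than a floor of 3 counts in the control (lower bound of the exact interval 4.91). It was 17.1 times its USP39-KO level (2.69 to 716). It was the 1 member of subfamily G with at least 10 counts.

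None of the mitochondrial half-transporters of subfamily B passed the rule. ABCB10, needed for haem synthesis in erythroid cells, had 772, 607 and 651 reads and log2 ratios of -0.11 and 0.01. ABCB8 had 1243, 1315 and 1219 reads and log2 ratios of 0.32 and 0.22. ABCB6, a haem-related porphyrin transporter, was farther from 0 on few reads, with 17, 20 and 28 and log2 ratios of 0.46 and 0.95 (0.05 to 1.93 for the second), short of the rule. None of the 21 counted genes of iron-sulfur and haem synthesis passed the rule against the control in either knockout. Over all genes 4.86% did in USP39-KO and 7.06% in SIRT7-KO. The list's medians were -0.04 and 0.06, and its most abundant gene, the chaperone HSPA9, had 0.17 and -0.14. ABCB9, a lysosomal peptide transporter, had 234, 165 and 228 reads, and its relatives TAP1 and TAP2, the peptide transporters of antigen presentation, had 0 in all libraries. Of 15 genes of peptide loading, 8 were counted (medians -0.12 and -0.36), with 1 higher and 2 lower in USP39-KO and 1 lower in SIRT7-KO, where 1.49%, 3.37% and 4.05% of all genes were. TAPBPL (39, 10 and 44 reads) and ERAP2 (79, 17 and 21) were lower in USP39-KO, and ERAP2 was lower in SIRT7-KO. HLA-C (2, 10 and 1 reads) was higher in USP39-KO, with its highest count just at the filter. CALR, the most abundant, had -0.14 and 0.31.

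In subfamily A, ABCA8 and ABCA10 stood apart. ABCA8 (ENSG00000141338; chromosome 17, 68867292 to 68955392, minus strand), a lipid transporter linked to HDL cholesterol, had 69, 5 and 148 reads. The knockouts lay on either side of the control. ABCA8 was 11.7-fold lower in USP39-KO (4.77 to 37.1), 2.55-fold higher in SIRT7-KO (1.91 to 3.45), and 29.9-fold apart between the knockouts (12.5 to 93.3). ABCA10, in the same gene cluster, had 11, 0 and 7 reads. In USP39-KO it was at least 3.11-fold lower against the floor of 3 counts (lower bound of the exact interval 2.13). The cluster also holds ABCA5, with 685, 586 and 844 reads and log2 ratios of 0.01 and 0.55, and ABCA6 and ABCA9, with at most 3 reads. ABCA10 and ABCA5 overlap on the same strand.

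ABCA13, the longest member by listed length at 18580 bases, had 347, 561 and 257 reads. It was 1.91 times the control in USP39-KO (1.67 to 2.19), short of the rule, and 2.16-fold lower in SIRT7-KO than in USP39-KO (1.86 to 2.52). ABCA2 had 7335, 5275 and 7498 reads, with log2 ratios of -0.24 (-0.29 to -0.19) and 0.28 (0.24 to 0.33), and ABCA7, a phospholipid transporter of phagocytic cells, -0.19 and 0.47. The lamellar body lipid transporter ABCA3 had 0.19 and -0.13. ABCA4 of the retina and ABCA12 of the skin had at most 15 and 5 reads.

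Subfamilies D, E and F had no member past the rule. ABCD3, the peroxisomal carrier of branched-chain and bile acid precursors, had 2332, 1391 and 1832 reads. It was at 0.704 times the control in USP39-KO (0.658 to 0.753) and 0.935 times in SIRT7-KO (0.879 to 0.995). ABCD4, the lysosomal cobalamin transporter, had log2 ratios of 0.09 and 0.17. Of 15 counted peroxisome biogenesis genes and 10 cobalamin handling genes, 0 passed the rule against the control, where 4.86% and 7.06% of all genes did. Medians were -0.05 and 0.03 for the first list and 0.07 and -0.06 for the second. Their most abundant members, PEX26 and MTRR, had -0.06 and 0.05, and -0.10 and -0.14.

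ABCE1, which splits ribosomes after termination, had 3279, 2617 and 2779 reads (log2 ratios -0.09 and 0.01). ABCF2 had 0.20 and -0.01, and ABCF3 -0.05 and -0.26. None of 12 counted ribosome recycling and stalled-ribosome genes passed the rule against the control, where 4.86% and 7.06% of all genes did. Their medians were 0.01 and -0.09, and GCN1, the most abundant, had -0.17 and -0.15. ABCF1, a translation factor in most cells, had only 4, 3 and 1 reads. It lies in the MHC region of chromosome 6, taken from GABBR1 to KIFC1, where 141 of the 155 protein-coding genes in the table had under 10 counts in every library (91.0%, lower bound of the exact interval 85.3%), against 35.4% of the 18975 others (34.7 to 36.0%). TAP1, TAP2 and HLA-C lie there as well. The part of the region in the low counts of these genes was not tested.

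Protein-coding genes within 500 kb were read around the 9 members ABCC9, ABCC2, ABCB1, ABCC8, ABCA8, ABCC3, ABCC6, ABCG4 and ABCA13. Over all genes counted, 1.49% were higher and 3.37% lower in USP39-KO than in the control, and 3.02% and 4.05% in SIRT7-KO. Between the knockouts, 5.03% were higher and 3.51% lower in SIRT7-KO. Whether any window differs from these shares was not tested. Around ABCC9, 6 other protein-coding genes were counted. SPX, encoding the peptide spexin, with 102, 182 and 46 reads, was higher in USP39-KO by the rule (log2 ratio 1.07), while LDHB and CMAS, on either side of ABCC9, had -0.03 and 0.27 there. Around ABCC2, 11 were counted and 1 passed the rule against the control, DNMBP in SIRT7-KO (log2 ratio 1.34), while in USP39-KO, where ABCC2 had -0.84, the neighbours lay between -0.14 and 0.88. Around ABCB1, 0 of 9 passed it in either knockout. Around ABCC8, 1 of 8 did, NCR3LG1, with 2131, 2035 and 848 reads (log2 ratio -1.08 in SIRT7-KO). Around ABCA8, ABCA10 was the 1 of 6 that did so, and MAP2K6, a MAP kinase kinase beyond ABCA5, had 436, 193 and 592 reads (log2 ratios -0.93 and 0.69). Around ABCG4, 2 of 17 were higher in SIRT7-KO, USP2 with 196, 314 and 410 reads (log2 ratio 1.31) and CCDC153 with 11, 20 and 24 (1.33). Around ABCC6, PKD1P1 was the 1 of 7 past the rule, lower in both knockouts with 27, 6 and 8 reads (-1.85 and -1.45). Around ABCC3, 2 of 19 were higher in SIRT7-KO than in the control, TMEM92 (9, 11 and 24 reads) and CHAD (7, 2 and 17). Both and ACSF2 (233, 119 and 371 reads) were higher in SIRT7-KO than in USP39-KO, as ABCC3 was, with log2 ratios of 1.10, 2.83 and 1.65. Around ABCA13, 0 of 2 passed it in any pair. Between the knockouts, SPX near ABCC9 (log2 ratio -1.96) and NCR3LG1 near ABCC8 (-1.25) were lower in SIRT7-KO. Near ABCA8, MAP2K6 (1.63) and ABCA10 (fitted 3.99, which depends on the prior) were higher there. No counted neighbour of ABCC2, ABCB1, ABCC6 or ABCG4 passed the rule between the knockouts.

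**Figure D4:**
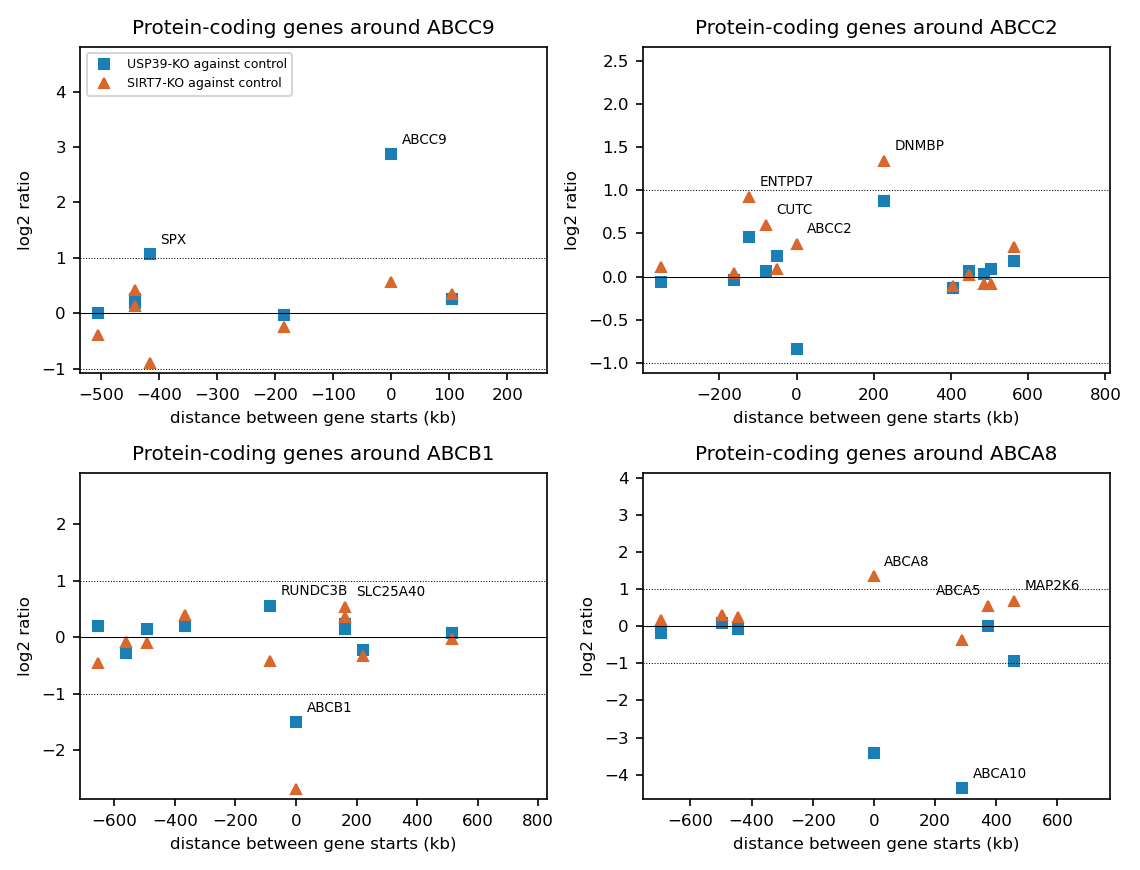
Log2 ratio to the control of counted protein-coding genes within 500 kb of ABCC9, ABCC2, ABCB1 and ABCA8, by distance between gene starts in kb; squares are USP39-KO, triangles SIRT7-KO, and genes at 0.5 or more in size are named. ABCC9 in USP39-KO (2.87) and ABCB1 in both knockouts (2.85-fold and 6.54-fold lower) lie farther from 0 than their neighbours; ABCA10 (0 reads in USP39-KO) is drawn at its fitted -4.37, which depends on the prior count.

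Companion genes of hepatic transport were read as lists. Of 13 hepatic uptake transporters, 8 were counted (medians -0.91 and -0.69), and 3 were lower by the rule in each knockout, where 3.37% and 4.05% of all genes were. Among them in both were SLCO1B3 (24, 1 and 0 reads) and SLCO2B1 (29, 0 and 3 reads), carriers of organic anions. Of the 10181 genes reaching 100 counts, 1.24% and 2.06% were lower. Calls were thus more common at low counts such as these, and the all-gene shares understate them there. SLC29A1, a nucleoside transporter and the list's most abundant member, had log2 ratios of -0.33 and 0.21. Of 22 regulators of bile acid and drug transport, 14 were counted (medians -0.08 and 0.11), with 1 higher and 2 lower in each knockout (all genes 1.49% and 3.37% in USP39-KO, 3.02% and 4.05% in SIRT7-KO). HNF4A, a hepatocyte transcription factor, had 113, 29 and 7 reads (log2 ratios -1.71 and -3.67), and the constitutive androstane receptor NR1I3 had 4, 13 and 17 (1.80 and 2.19). The other lower genes were FOXA1 in USP39-KO (-1.06) and CEBPA in SIRT7-KO (-3.41, from 18 and 1 reads), and CEBPB, the most abundant, had -0.10 and 0.11. Of the enzymes that make the conjugates for ABCC exporters, 0 of 19 counted glutathione genes passed the rule against the control (medians 0.01 and 0.13). Nor did any of 4 counted glucuronidation genes (medians -0.04 and -0.16). Over all genes 4.86% passed it in USP39-KO and 7.06% in SIRT7-KO, so 0 in lists this short is near the background. GSTP1 had 10344, 9262 and 7103 reads, and UGDH, which makes UDP-glucuronate, 3228, 2629 and 1646 (log2 ratios -0.06 and -0.72). Of 10 counted genes of the canalicular scaffold 0 passed it (medians -0.07 and 0.15), with MSN at -0.25 and 0.12.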

How the data were processed

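Total RNA was harvested in Trizol and made into TruSeq libraries, per the labels' protocols. The authors deposited whole-number, unnormalized read counts per gene and FPKM, per the file headers. FPKM equalled counts over listed length and library total for every gene with reads (14711, 14361 and 14616 genes in the 3 libraries, relative tolerance 1e-06). The sources used here do not name the aligner, counting program or genome build. Effective library sizes came from TMM factors (edgeR 4.0.16). Log2 ratios had a prior of 0.5 counts, and their intervals are exact conditional binomial (Clopper-Pearson) 95% intervals. FPKM intervals are exact Poisson intervals. The filter was 10 counts in any library, which left 12726 genes, called counted in the text. Reads had no molecular identifiers, so intervals and the floor of 3 counts describe counting error only. The calculation was tested on simulated counts. Dispersion cannot be estimated from single libraries, and no edgeR or DESeq2 test was run. Folds written as "at least" set that floor against the other library's count and take no account of that count's error.

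The members, companion lists and size rule were chosen with earlier results of these data known. Named are the members past the rule, the most abundant of each subfamily, ABCC9 and ABCC2, and the companion genes past the rule or most abundant in their list, with other members where a functional group is described. KCNJ8, KCNJ11, TAP1, TAP2, neighbouring genes, the MHC region and start regions were read after the values were seen. Some genes stay in all counts and sums but are not reported here by name. Symbols and coordinates are from GENCODE 29 on GRCh38. Of the 43 genes, 31 overlap another annotated gene, 26 on the opposite strand, and their counts are uncertain to that extent. Alternatives were 2 other scalings, 2 other filters, another prior, a 1.5-fold rule and 99% intervals.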

Additional observations from a re-analysis of the deposited data

How the results depend on the processing

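No paired analysis was possible because each group has 1 library, and leaving out a library would leave no comparison. Requiring 100 counts left 2 members lower in USP39-KO (5 before), 1 higher and 1 lower in SIRT7-KO (2 and 2 before), and 3 higher in SIRT7-KO than in USP39-KO (6 before), since fewer genes were counted. Over the 10181 genes then counted, 1.24% were lower in USP39-KO, 1.34% higher and 2.06% lower in SIRT7-KO, and 2.76% higher in SIRT7-KO than in USP39-KO, so 1 of 23 members each way in SIRT7-KO is near the background. A 1.5-fold rule gave 2 members higher in USP39-KO (1 before), with ABCA13 added. The share of all genes that were higher rose as well, to 3.19% (1.49% before). With 99% intervals ABCA10 no longer passed between the knockouts (fitted log2 ratio 3.99, which depends on the prior). Under these alternatives, DESeq2 size factors, library totals alone, no filter and a prior of 2 counts, the other counts stayed within 1.5 times of their values. The members' median log2 ratio ranged from -0.06 to -0.02 in USP39-KO and from 0.03 to 0.05 in SIRT7-KO. ABCA10, ABCC6, ABCC8 and ABCG4 had at most 40 reads in a library, and their folds have wide intervals.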
